A study of Drosophila melanogaster with 9 samples.

Results

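The mRNAs of 6 genes (l(3)mbt, Lint-O and those of partner proteins in the LINT complex and in histone modification) were followed in Drosophila melanogaster libraries labelled as L(3)mbt mutant, Lint-O mutant and wild type. With Lint-1, CoRest, HDAC1 and Su(var)3-3 as the partners, they are called the LINT genes for short. They were found by their FlyBase identifiers among the 17611 genes of the count table, and all 6 passed the filter on low counts in every comparison. RNA-seq was done on 9 libraries, 3 per group. By the methods of the study, the L(3)mbt mutant carried l(3)mbt ts1, a temperature-sensitive allele. Its stock is given with w* and a balancer chromosome, and not as y1 w1118. For larval brains the study lists this mutant without the balancer, and it gives brain volumes for −/− larvae of both mutants. The Lint-O mutant carried 1 CRISPR-made allele, a deletion of a single base in the coding part of the first exon, in a y1 w1118 background. The wild type, called yw, was y1 w1118. All 9 libraries are labelled as brain from third-instar (L3) larvae. For such brains the study's methods give egg laying at 25 °C and then 5 to 6 days at 29 °C. Sex and the number of larvae per library are not given in the sources used here. The question was whether loss of one of these genes changed the mRNA of the others.

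L(3)mbt reads chromatin through malignant brain tumor (MBT) repeats, and larvae without it grow brain tumours in which genes of the germline are switched on. The LINT complex joins it to Lint-1, to the scaffold CoRest and to histone-modifying enzymes that act with CoRest. HDAC1, also known as Rpd3, removes acetyl groups from histones and also works in the Sin3 and NuRD complexes. Su(var)3-3, the fly LSD1, removes methyl groups from H3K4. Lint-O interacts with L(3)mbt, and the study sets it apart from the LINT complex itself.

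The libraries held 18681293 to 31519287 counts each. Markers of the labelled tissue were incomplete in all 9 libraries. The neuroblast genes dpn and ase, the neuronal genes nSyb and brp and the glial gene repo were each under 1 CPM (counts scaled to equal library totals), and so were 4 of 7 neuroblast, 4 of 7 neuronal and 3 of 5 glial markers. All 4 markers of ovarian somatic cells (tj, fs(1)Yb, Fas3 and flam) were over 10 CPM in every library, with sums of 629 to 722 CPM in L(3)mbt mutants, 727 to 793 CPM in Lint-O mutants and 571 to 809 CPM in yw. Of these, Fas3 was higher (log2 fold change 0.89, DESeq2 adjusted p = 1.05e-17) and flam lower (−1.13, DESeq2 adjusted p = 0.0016) in L(3)mbt mutants than in yw. The markers thus go against the label of brain. The columns of the yw samples are named EGFP, which the labels give for no genotype. The study also depleted genes by siRNA in cultured ovarian somatic cells, with GFP siRNA as the control. Over the 9 libraries, tj was at 403 to 623 CPM and fs(1)Yb at 138 to 166 CPM. Whether the libraries came from mutant brains, as labelled, or from such cells was not tested. The groups are called by their labels, and every value for a mutant, including how much l(3)mbt or Lint-O mRNA was left, holds for the libraries labelled so. Summed neuronal markers were 229 to 278 CPM in L(3)mbt mutants, 245 to 274 CPM in Lint-O mutants and 146 to 213 CPM in yw. Of the neuronal markers over 10 CPM, only the calcium channel gene cac was higher (log2 fold changes 1.45 and 1.46), whereas elav was at −0.31 and −0.16 and Syx1A at −0.32, called lower, and −0.22. Summed markers of germline and testis were 212 to 225 CPM in L(3)mbt mutants, 155 to 163 CPM in Lint-O mutants and 80.5 to 83.8 CPM in yw. Summed glial markers were 197.8 to 205.3 CPM in L(3)mbt mutants, 211.8 to 234.3 CPM in Lint-O mutants and 235.3 to 256.5 CPM in yw, and the part of these marker differences in the results that follow was not tested. vas, a germline gene that L(3)mbt represses, had means of 6741 normalized counts in L(3)mbt mutants, 3225 in Lint-O mutants and 61.9 in yw.

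Each of the LINT genes was first placed in the genome (BDGP6, dm6 coordinates) and its level set against the others per length of exon. Lint-O (FBgn0024993, chrX:2698701-2701033), Lint-1 (FBgn0030274, chrX:11149323-11152592) and CoRest (FBgn0261573, chrX:19521929-19530896) lie on the plus strand of the X chromosome, and l(3)mbt (FBgn0002441, chr3R:27266326-27273273) on the minus strand of 3R. HDAC1 (FBgn0015805, chr3L:4626734-4629467) and Su(var)3-3 (FBgn0260397, chr3L:20226381-20230250) lie on the plus strand of 3L. All 6 are protein-coding, and their exon lengths are 5398 bp for l(3)mbt, 1765 bp for Lint-O, 2656 bp for Lint-1, 5742 bp for CoRest, 2124 bp for HDAC1 and 3681 bp for Su(var)3-3. Exons of Lint-O, CoRest and Su(var)3-3 are shared with no other gene. Of l(3)mbt, 1.82% of the exon length lies opposite CG14260. The share is 4.10% for Lint-1, opposite rtv, and 8.0% for HDAC1, opposite lncRNA:CR45438, which had no count.

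HDAC1 was the most abundant of these transcripts in every group. It had 140.7 ± 0.506 CPM per kilobase of exon in L(3)mbt mutants, 138 ± 3.78 in Lint-O mutants and 143 ± 6.47 in yw (mean ± SD, n = 3 each). CoRest came next, at 38.5 ± 1.46, 37.6 ± 0.849 and 37.0 ± 0.526 CPM per kilobase in the same groups. Below these a single order did not hold for all groups. In yw, Lint-1 (26.4 ± 0.714 CPM per kilobase) and l(3)mbt (25.0 ± 1.85) were not separated beyond their spread, and neither were Lint-O (12.1 ± 0.173) and Su(var)3-3 (11.9 ± 0.439). In L(3)mbt mutants, l(3)mbt (14.6 ± 0.860 CPM per kilobase) overlapped Lint-O (14.3 ± 0.192), below Lint-1 (31.3 ± 0.279) and above Su(var)3-3 (12.7 ± 0.902). In Lint-O mutants, l(3)mbt (34.2 ± 2.25 CPM per kilobase) overlapped Lint-1 (32.5 ± 1.11), and Lint-O (2.08 ± 0.109) lay below Su(var)3-3 (12.4 ± 0.690).

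**Figure D1:**
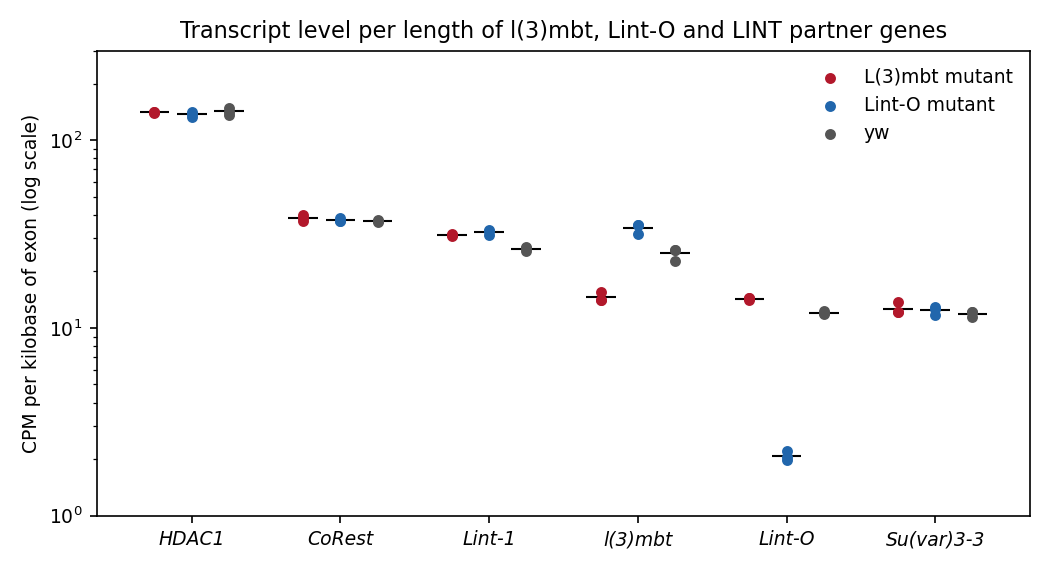
Level of each of the LINT genes, in CPM per kilobase of exon on a log scale, with 1 point per library, lines at the means, and L(3)mbt mutant, Lint-O mutant and yw side by side for each gene. HDAC1 lies near 140.7 CPM per kilobase in all groups, while Lint-O lies at 2.08 CPM per kilobase in its own mutant.

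The genes named in the group labels, called the targeted genes, were examined first. The sources used here give no l(3)mbt mRNA level for ts1, so the l(3)mbt value does not check that label. l(3)mbt, the MBT-repeat subunit, had 1733, 1909 and 1744 normalized counts (read counts divided by a size factor per library) in L(3)mbt mutants, against 2914, 3326 and 3371 in yw. The groups did not overlap, and the L(3)mbt mutant held 56.0% of the yw level. The log2 fold change was −0.84 (SE 0.07, DESeq2 adjusted p = 1.08e-27). In these bulk libraries, fewer cells that use a gene cannot be told apart from less RNA per cell.

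Lint-O had 88.8, 79.9 and 83.7 normalized counts in Lint-O mutants, against 510.9, 502.8 and 504.7 in yw. These values rest on 91, 76 and 68 reads in the mutant libraries. Here too the groups were well apart, with 16.6% of the yw level left. The log2 fold change was −2.59 (SE 0.13, DESeq2 adjusted p = 2.52e-83), the second most negative of the 784 genes that were called lower in this comparison at an adjusted p under 0.01. l(3)mbt ranked 92 of 1344 among the genes called lower in its own mutant.

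**Figure D2:**
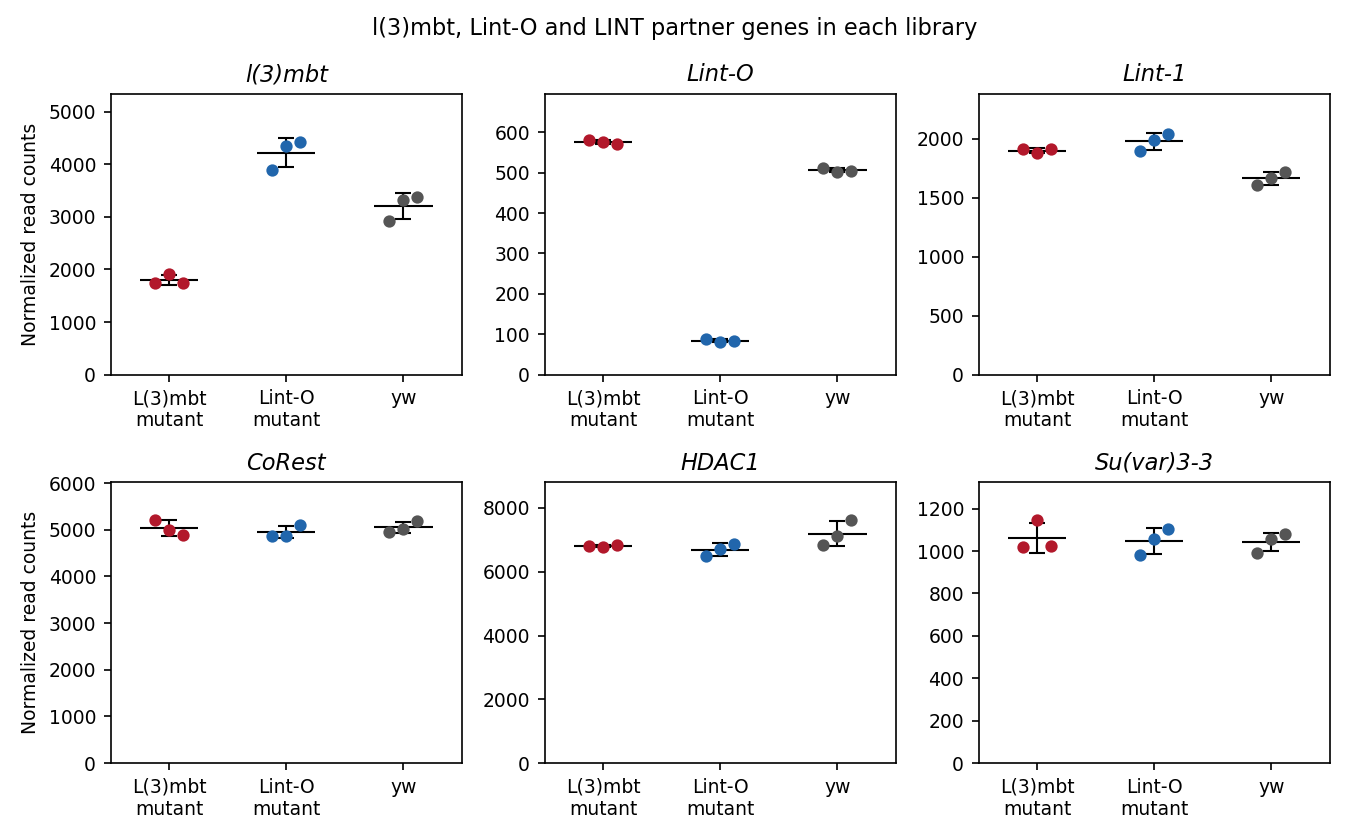
Normalized read counts of the LINT genes, with 1 point per library and bars for mean ± SD (n = 3), in L(3)mbt mutants, the Lint-O mutant and yw, with axes that start at 0 and differ between genes. l(3)mbt was lowest in L(3)mbt mutants (1795 ± 98.5) and highest in Lint-O mutants (4222 ± 284), and Lint-O fell to 84.1 ± 4.44 in Lint-O mutants.

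Of the 5 LINT genes that were not targeted in Lint-O mutants, 2 rose (l(3)mbt and Lint-1) and none fell. Of all 10422 genes tested in this comparison, 20.9% were called, 13.4% as higher and 7.52% as lower. With 5 genes, a count of 2 does not set them apart from the rest of the table. The median log2 fold change of the 6 genes was −0.01, beside 0.01 for all genes tested.

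l(3)mbt had 3896, 4352 and 4418 normalized counts in Lint-O mutants, against 2914, 3326 and 3371 in yw. Every Lint-O mutant library was above every yw library, and 43.1% of all tested genes were separated in this way in one direction or the other. l(3)mbt was 31.7% higher in Lint-O mutants (log2 fold change 0.40, 95% interval 0.25 to 0.54, DESeq2 adjusted p = 8.11e-07). The gene thus fell in its own mutant and rose in the mutant of Lint-O. Both comparisons used the same yw libraries. By size, the increase was at rank 1131 of 1396 genes called higher in this mutant. Of all genes tested, 71.4% had a smaller change in either direction. The overlapping gene CG14260, at 1.09 to 3.91 CPM, was higher in both mutants, with log2 fold changes of 0.92 (SE 0.27, DESeq2 adjusted p = 0.00234) in L(3)mbt mutants and 1.10 (DESeq2 adjusted p = 0.000338) in Lint-O mutants.

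The reverse effect, of L(3)mbt loss on Lint-O, did not pass the test. Lint-O had 580.1, 575.9 and 571.9 normalized counts in L(3)mbt mutants, against 510.9, 502.8 and 504.7 in yw. The ranges did not overlap, as was also the case for 50.9% of all genes tested. The log2 fold change was 0.19 (95% interval −0.01 to 0.38, DESeq2 adjusted p = 0.122). The 3 libraries of each of these groups lay closer together (coefficients of variation of 0.712% and 0.838%) than counting error alone gives at this depth (4.01% and 4.45%).

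In L(3)mbt mutants, Lint-1 alone was called among the 5 that were not targeted, against 30.7% of the 10687 genes tested (18.1% higher, 12.6% lower). The median log2 fold change over the 6 genes was 0.01, beside −0.01 for all genes tested. Lint-1, the subunit first purified with L(3)mbt, had 1909, 1874 and 1907 normalized counts in L(3)mbt mutants, against 1603, 1667 and 1717 in yw. It was 14.1% higher, with no overlap, and stood at rank 1917 of 1936 genes called higher (log2 fold change 0.19, 95% interval 0.07 to 0.31, DESeq2 adjusted p = 0.00814). That call rested on the test used. edgeR's quasi-likelihood test gave 0.16 with an adjusted p of 0.0171, and the DESeq2 call was lost in 8 of 9 fits that left out 1 library, all but the one without yw replicate 3, with log2 fold changes of 0.16 to 0.20.

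In Lint-O mutants, Lint-1 had 1898, 1988 and 2042 normalized counts, against 1603, 1667 and 1717 in yw. The groups did not overlap, and the mean was 18.7% higher in the mutant (log2 fold change 0.25, 95% interval 0.12 to 0.37, DESeq2 adjusted p = 0.000591). edgeR's quasi-likelihood test gave 0.24 with an adjusted p of 0.00249. The call was lost without yw replicate 1 (0.22, DESeq2 adjusted p = 0.0106) and without Lint-O mutant replicate 3 (0.22, DESeq2 adjusted p = 0.0122). rtv, the gene opposite Lint-1, did not pass the test in either mutant, with log2 fold changes of −0.06 and −0.02.

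The scaffold and the enzymes did not pass the test in either mutant. CoRest had 5218, 4997 and 4896 normalized counts in L(3)mbt mutants, 4870, 4873 and 5100 in Lint-O mutants and 4953, 5016 and 5179 in yw. These ranges overlapped in every pair of groups. The 95% interval of its log2 fold change was −0.11 to 0.10 in L(3)mbt mutants and −0.13 to 0.07 in Lint-O mutants (DESeq2 adjusted p = 0.964 and 0.749).

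HDAC1 had 6813, 6785 and 6843 normalized counts in L(3)mbt mutants, 6479, 6721 and 6877 in Lint-O mutants and 6835, 7122 and 7605 in yw. The highest of the 9 values was in yw, but the groups overlapped. Log2 fold changes were −0.08 (95% interval −0.18 to 0.03, DESeq2 adjusted p = 0.267) in L(3)mbt mutants and −0.10 (95% interval −0.21 to 0.003, DESeq2 adjusted p = 0.15) in Lint-O mutants. Su(var)3-3, the demethylase, had 1018, 1144 and 1024 normalized counts in L(3)mbt mutants, 981.1, 1054 and 1102 in Lint-O mutants and 992.7, 1056 and 1079 in yw. Its groups overlapped throughout. Its intervals were −0.13 to 0.18 in L(3)mbt mutants and −0.16 to 0.16 in Lint-O mutants (DESeq2 adjusted p = 0.845 and 0.988).

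**Figure D3:**
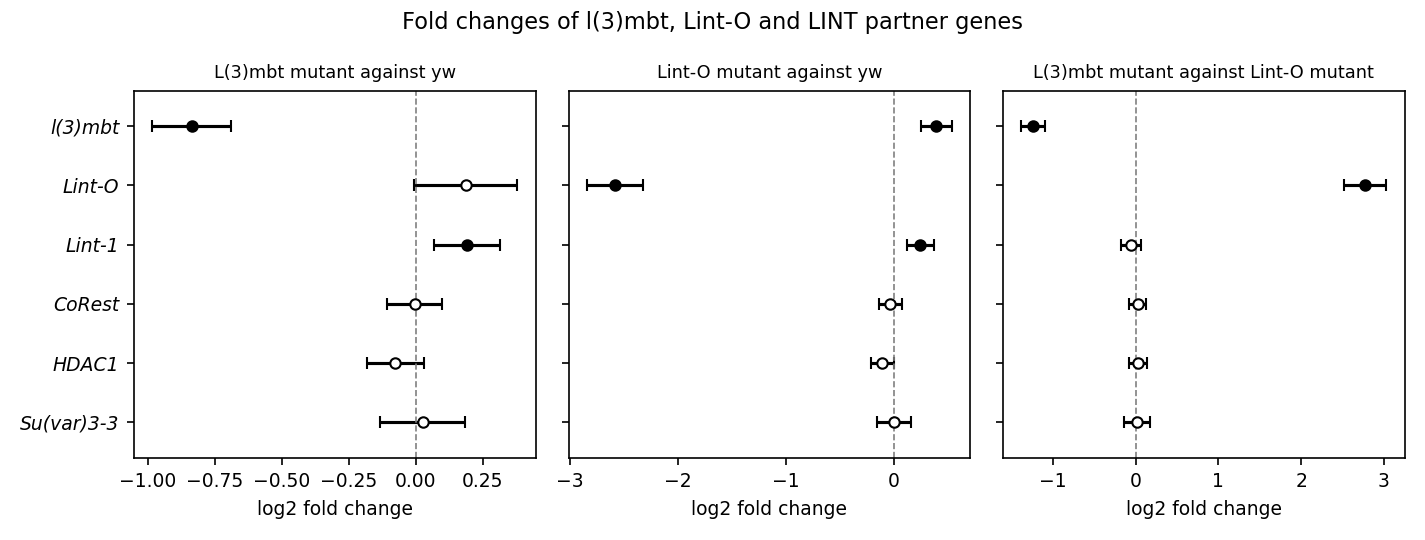
Log2 fold changes of the LINT genes in each comparison, with bars for 95% intervals, filled points for an adjusted p under 0.01 and open points for the rest, on axes that differ between panels. Apart from the targeted genes, only l(3)mbt (0.40) and Lint-1 (0.25) in Lint-O mutants and Lint-1 (0.19) in L(3)mbt mutants are filled against yw.

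The mutants were also compared with each other. Here 14.9% of the 9097 genes tested were called, 9.22% as higher in L(3)mbt mutants and 5.71% as lower. Of the 6 LINT genes only the targeted ones were called, 1 in each direction. They were also the only ones whose ranges did not overlap, which held for 41.2% of all genes tested. The level of l(3)mbt in L(3)mbt mutants was 42.5% of that in Lint-O mutants (log2 fold change −1.23, SE 0.07, DESeq2 adjusted p = 6.3e-59). Lint-O was 6.84-fold higher in L(3)mbt mutants than in Lint-O mutants (log2 fold change 2.77, SE 0.13, DESeq2 adjusted p = 2.56e-96). For Lint-1 the difference was −0.06 (95% interval −0.18 to 0.06, DESeq2 adjusted p = 0.562), so that a difference between the mutants in the Lint-1 increase was not detected. The intervals of the other 3 genes were −0.08 to 0.13 for CoRest, −0.08 to 0.13 for HDAC1 and −0.14 to 0.18 for Su(var)3-3.

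The balance between these transcripts followed from these values. The ratio of l(3)mbt to Lint-O, per kilobase, was 0.977, 1.08 and 0.997 in L(3)mbt mutants, 14.4, 17.8 and 17.3 in Lint-O mutants and 1.87, 2.16 and 2.18 in yw. No library of one group came near those of another. Both genes of this ratio are targeted, each in 1 of the mutants, so the separation follows largely from the design. CoRest to Lint-1 was 1.23 ± 0.0388 in L(3)mbt mutants, 1.16 ± 0.0267 in Lint-O mutants and 1.41 ± 0.0206 in yw. HDAC1 to CoRest was 3.66 ± 0.125, 3.66 ± 0.0668 and 3.85 ± 0.12, and HDAC1 to Su(var)3-3 was 11.2 ± 0.759, 11.1 ± 0.318 and 11.9 ± 0.264 in the same groups (SD, n = 3 each). Between replicates of 1 group the coefficient of variation of normalized counts was largest for l(3)mbt in yw (7.85%, with 1.78% from counting alone) and smallest for HDAC1 in L(3)mbt mutants (0.429%, with 1.17% from counting alone).

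Genes with related roles were set beside the LINT genes. Over all genes tested, DESeq2 called 30.7% in L(3)mbt mutants and 20.9% in Lint-O mutants. The counts in the lists that follow were not tested against these shares. The share of all genes at an unadjusted p under 0.05 is not given here, so counts at that threshold cannot be set against the whole table. Among partners of CoRest and L(3)mbt such as ttk and chn, none of 5 was called by DESeq2 in L(3)mbt mutants, where 3 had an unadjusted p under 0.05 and edgeR called 1. In Lint-O mutants 1 was called, G9a, which methylates H3K9 (log2 fold change 0.26, SE 0.07, DESeq2 adjusted p = 0.00231), at 0.08 in L(3)mbt mutants. None of the 10 genes of other HDAC1 complexes was called in either mutant. At an unadjusted p under 0.05 DESeq2 gave 5 in L(3)mbt mutants and 3 in Lint-O mutants, and edgeR called 1 and 0. The medians over these 10 genes were −0.09 and −0.03. MEP-1, in this list, shares 89.4% of its exon length with other genes on the same strand. It was at 13.9 to 26.3 CPM, with log2 fold changes of −0.37 and −0.36.

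Sfmbt, which also carries MBT repeats, rose in both mutants (log2 fold change 0.33, DESeq2 adjusted p = 2.11e-10 in L(3)mbt mutants, and 0.19, DESeq2 adjusted p = 0.000873 in Lint-O mutants), while Scm, at −0.13 and 0.09, did not pass. Of 7 other histone deacetylases tested, DESeq2 and edgeR called 0 in L(3)mbt mutants, with 0 at an unadjusted p under 0.05, and only HDAC4 fell in Lint-O mutants, where 4 had an unadjusted p under 0.05 (−0.29, DESeq2 adjusted p = 0.00113). HDAC3 and Sirt6 had no count in any library, and all of the HDAC3 exon length is shared with other genes. Of 7 other histone lysine demethylases, Kdm2 rose in both mutants (0.40, DESeq2 adjusted p = 1.12e-05, and 0.28, DESeq2 adjusted p = 0.00363) and Kdm4A in L(3)mbt mutants (0.33, DESeq2 adjusted p = 0.000887). Kdm4B, called in neither mutant, shares 84.8% of its exon length with other genes on the same strand.

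A further list held genes of chromatin proteins purified with L(3)mbt in cultured ovarian somatic cells. Of its 5 genes, prod (0.27) and the histone gene His3.3A (0.21) rose in L(3)mbt mutants and Polr2C, an RNA polymerase subunit, fell (−0.28), with DESeq2 adjusted p = 3.59e-05, 0.000338 and 0.000784. Lint-O mutants had 1 call in this list, indra, which fell (−0.37, DESeq2 adjusted p = 3e-08). The dREAM complex is the other repressor complex that holds L(3)mbt. Of its 9 genes tested, mip120 (0.36, DESeq2 adjusted p = 4.66e-08) and mip130 (0.41, DESeq2 adjusted p = 1.13e-06) rose in L(3)mbt mutants, and mip130 alone rose in Lint-O mutants (0.26, DESeq2 adjusted p = 0.00566). Of all genes tested, 18.1% were called higher in L(3)mbt mutants and 13.4% in Lint-O mutants. Myb, the remaining dREAM gene, had no count, and 99.1% of its exon length is shared with other genes on the same strand.

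Some of these calls depended on 1 library. G9a in Lint-O mutants was lost without yw replicate 2 or 3 or without Lint-O mutant replicate 1 or 2 (0.22 to 0.27). Kdm2 in Lint-O mutants was lost without any 1 yw library or without Lint-O mutant replicate 2 or 3 (0.22 to 0.29). mip130 in Lint-O mutants was lost without yw replicate 1 or 2, without Lint-O mutant replicate 2 or 3 and without replicate 1 of the L(3)mbt mutant (0.21 to 0.27). Kdm2 and mip130 were also not called there by edgeR, nor mip130 in a fit to only the groups compared (0.26). Sfmbt in Lint-O mutants was lost without yw replicate 2 or Lint-O mutant replicate 2 or 3 (0.18 to 0.19), and HDAC4 without replicate 1 of yw or of the Lint-O mutant (−0.26 to −0.25) and with total counts as size factors (−0.24). In L(3)mbt mutants, Kdm4A was lost without replicate 3 of yw or of the mutant (0.28 to 0.29), Polr2C without replicate 3 of yw or replicate 1 of the mutant (−0.26 to −0.23), and His3.3A without L(3)mbt mutant replicate 1 (0.19). The calls of Sfmbt, Kdm2, prod, mip120 and mip130 in L(3)mbt mutants and of indra in Lint-O mutants held in all alternatives tried.

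**Figure D4:**
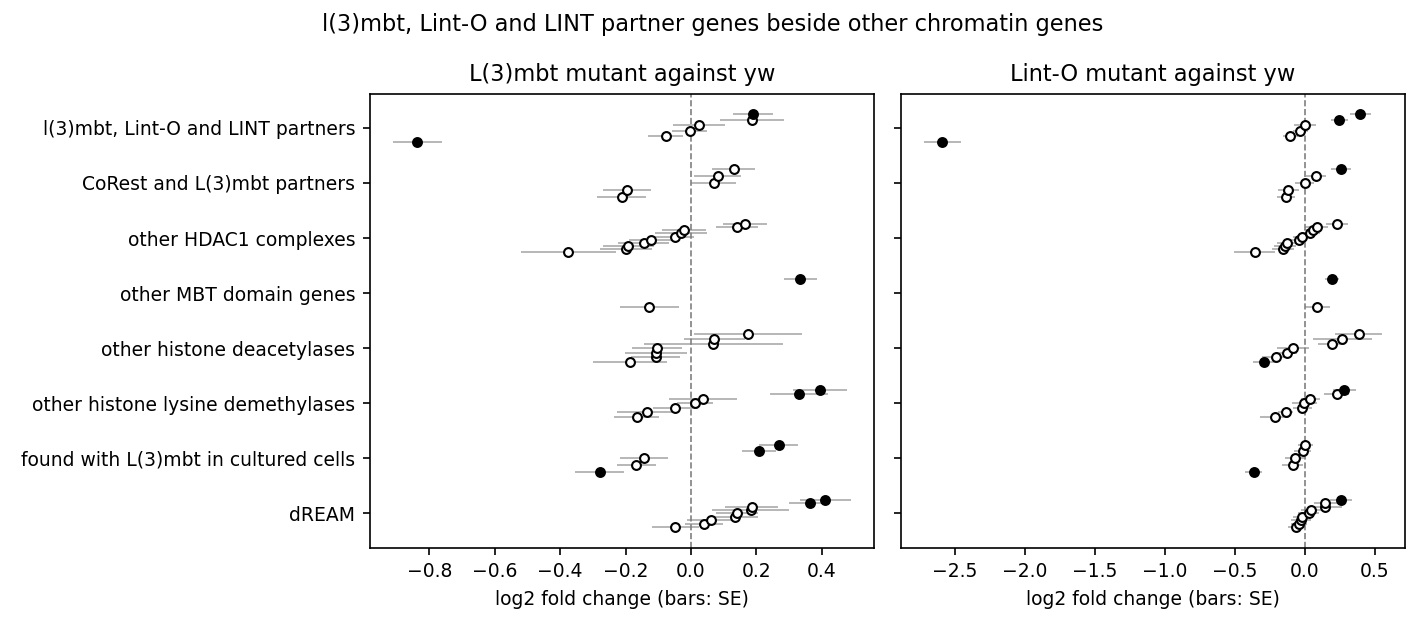
Log2 fold changes of the LINT genes and of 7 lists of related chromatin genes in L(3)mbt mutants and in Lint-O mutants, each against yw, with 1 point per gene, bars for SE, filled points for an adjusted p under 0.01, and different axes in the 2 panels. The targeted genes l(3)mbt (−0.84) and Lint-O (−2.59) lie far to the left of every listed gene.

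vas, aub, tej and nanos, which L(3)mbt keeps off, were taken as a readout of the mutants. They were listed with results of these libraries known, so that their direction is not independent evidence. Between the mutants, vas (log2 fold change 1.06, DESeq2 adjusted p = 3.34e-43), tej (1.33, DESeq2 adjusted p = 1.7e-25) and nanos (1.46, DESeq2 adjusted p = 5.97e-16) were higher in L(3)mbt mutants than in Lint-O mutants. The nanos call was lost with a replicate block (1.49, DESeq2 adjusted p = 0.17). aub did not pass the test (0.05, DESeq2 adjusted p = 0.719). nanos had 564, 393 and 433 counts in L(3)mbt mutants, 156, 145 and 132 in Lint-O mutants and 1, 0 and 10 in yw.

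The genes whose pattern was most like that of the targeted genes were found by Pearson's r of log2(normalized count + 1) over the 9 libraries, among the 7561 genes that averaged 50 normalized counts or more. For l(3)mbt these were CG9747 (r = 0.985), grass (r = 0.984) and Ufd4 (r = 0.978). For Lint-O they were pyr (r = 0.978), CG1146 (r = 0.974) and CG5554 (r = 0.973). l(3)mbt and Lint-O themselves were at r = −0.780. Each is the targeted gene of 1 group and was lowest there. A negative r is thus in part built into the design and does not show that one gene acts on the other. These values describe 9 libraries in 3 groups and were not tested.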

How the data were processed

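Counts per gene were deposited by the authors as raw whole numbers, 1 column per library, without normalization or pooling. The study's library methods give removal of ribosomal RNA, poly-A selection and a stranded kit. They speak of triplicates per RNAi-treated condition and do not name the brain libraries. Reads of ribosomal RNA were set aside and HISAT2 aligned the rest to dm6. The submitters' processing notes also name featureCounts. Versions, annotation and strand setting are not given in the sources used here. Of 17611 identifiers, 17559 matched Ensembl's BDGP6 annotation.

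DESeq2 1.42.0 (R 4.3.3), as in the study's methods, was fitted to all 9 libraries with 1 coefficient per group, median-of-ratios size factors, Cook's cutoff and independent filtering. Two-sided Wald p-values were adjusted by Benjamini-Hochberg over all genes tested, with a threshold of 0.01. Levels are CPM (counts over the library total) per kilobase of exon. edgeR 4.0.16 was an alternative, beside those in the closing section. The script was tested on simulated data. All 6 LINT genes are named, with listed genes called in either mutant against yw. For l(3)mbt and Lint-O the 3 genes of most similar pattern are named. Members and lists were chosen with earlier results of these data known. The study calls the libraries biological triplicates. Replicates differed by more than counting error, with a chi-square of 4.5 to 18.98 for each degree of freedom. Deviations of Lint-O mutant and yw libraries of the same number correlated at 0.115, 0.127 and 0.347. Lint-O mutant replicate 1 and yw replicate 2, of unlike number, were at 0.174, so these values do not establish a pairing. For the L(3)mbt mutant and yw, libraries of the same number were at −0.222, −0.095 and −0.229. The main fit did not pair libraries, and a replicate block was tried only as an alternative.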

Additional observations from a re-analysis of the deposited data

How the results depend on the processing

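The changes of l(3)mbt and Lint-O that were called held in all alternatives tried. Of the 6 LINT genes, 2 were called in L(3)mbt mutants against yw, and 1, without Lint-1, under edgeR's quasi-likelihood test, TMM factors, no filtering or Cook's cutoff, a fit to only the groups compared and the replicate block. Leaving out 1 library gave 1 to 2 called genes there, 2 to 3 in Lint-O mutants against yw and 2 in all fits between the mutants. Over all genes it gave 2627 to 3157, 1663 to 2217 and 882 to 1531 calls in these comparisons, against 3280, 2180 and 1358 with every library. The lowest count between the mutants came without L(3)mbt mutant replicate 1, and 886 were called without Lint-O mutant replicate 2. CoRest and Su(var)3-3, which did not pass the test, lay near 0 and changed sign in some fits. With total counts as size factors CoRest was at 0.0543 in L(3)mbt mutants and 0.0221 in Lint-O mutants, and it ran over −0.0276 to 0.0176 in L(3)mbt mutants when 1 library was left out. Su(var)3-3 was at −0.0006 (edgeR) and −0.0049 (TMM) in L(3)mbt mutants and at −0.0048 and −0.0088 in Lint-O mutants, and with 1 library left out it ran over −0.029 to 0.0567 in L(3)mbt mutants, −0.035 to 0.0458 in Lint-O mutants and −0.0317 to 0.0618 between the mutants. The cause was not tested. The replicate block, which pairs libraries by number, changed no call of a LINT gene in Lint-O mutants. Of the genes called against yw, 59.0% were higher in L(3)mbt mutants and 64.0% in Lint-O mutants, against 71.2% and 77.9% with total counts, 52.5% and 61.0% with TMM factors and 54.5% and 64.9% with edgeR. Exon length without shared bases or DESeq2 size factors kept the order of levels.

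Each gene was measured through 3 libraries a group. Lint-O in its own mutant rests on 68 to 91 reads a library.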
